A study of Homo sapiens with 27 samples.

Results

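The genes described here are 8 genes of cholesterol and fatty acid synthesis, HMGCS1, IDI1, FDPS, FDFT1, SQLE, INSIG1, SCD and FASN, in RM82 cells. They were chosen by name, and every transcript that the RM82 count files list and that GENCODE 44 assigns to one of these symbols was taken. This gave 8 of 18776 genes with a count and 62 of 93530 listed transcripts. RM82 is a human Ewing sarcoma cell line. In the study, cells of the line were kept for 24 h with SGC-CLK-1, an inhibitor of the CDC-like kinases that phosphorylate SR splicing factors, or with the solvent dimethylsulfoxide (DMSO) as control, and their RNA was tagged with homotrimer UMIs (molecular barcodes) and sequenced as full-length cDNA on a nanopore instrument. There were 3 libraries labelled SGC-CLK-1 and 3 labelled DMSO, and no genetic change was labelled in either group. The study describes its experiments in general as done at least 3 times independently, while the labels of these libraries do not name separate cultures, and p-values measure the spread between these libraries.

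Cholesterol and fatty acids are both built from acetyl-CoA. In the mevalonate pathway HMGCS1 makes HMG-CoA, the precursor of mevalonate, IDI1 and FDPS build the isoprenoid chain, FDFT1 joins 2 farnesyl units to squalene and SQLE oxidises squalene on the way to lanosterol. FASN makes palmitate from malonyl-CoA, and SCD puts the double bond into saturated fatty acids. The sterol regulatory element binding proteins, SREBP1 and SREBP2 (genes SREBF1 and SREBF2), switch on these genes when sterols are low, and INSIG1, itself a target, holds them in the endoplasmic reticulum when sterols are plentiful.

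SREBPs bind sterol regulatory elements close to gene starts, usually beside a CCAAT box, the site of the factor NF-Y. Promoter windows from RefSeq (GRCh38.p14, 250 bases before to 50 after a gene start) were found by symbol for 5 of the 8 genes, in 8 windows, since HMGCS1 and IDI1 have several annotated starts. The element was searched as TCACNCCAC and the box as CCAAT, on both strands. None of the 8 windows held TCACNCCAC, which 1.13% of all 35116 windows held. CCAAT was in 6 of the 8 windows, against 34.6% of all windows. The windows of HMGCS1 overlapped, as did the 2 of IDI1 with a match, so windows of 1 gene are not separate units. Each of the 5 genes had it in at least 1 window, and the matching share per gene over all genes was not computed. These are letter matches in short windows and not measured binding. The stretches below show where the boxes lie, with CCAAT and its reverse complement ATTGG in capitals. For IDI1 1 of its 2 windows with a match is shown, and the other held matches 215 and 117 bases before its start. Last, the SREBF2 promoter is given beside them because it held both motifs.
HMGCS1, chr5:43313488-43313587, minus strand: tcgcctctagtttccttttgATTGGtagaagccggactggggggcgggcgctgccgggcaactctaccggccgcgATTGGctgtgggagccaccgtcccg
IDI1, chr10:1048949-1049038, minus strand: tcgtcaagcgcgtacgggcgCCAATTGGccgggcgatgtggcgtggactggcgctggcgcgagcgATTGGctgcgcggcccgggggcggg
FDPS, chr1:155308670-155308839, plus strand: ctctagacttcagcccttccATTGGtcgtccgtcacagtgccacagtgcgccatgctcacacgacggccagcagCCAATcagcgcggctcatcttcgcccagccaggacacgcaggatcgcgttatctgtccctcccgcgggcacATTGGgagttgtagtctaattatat
INSIG1, chr7:155297688-155297732, plus strand: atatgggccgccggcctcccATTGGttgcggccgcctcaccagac
SCD, chr10:100346984-100347071, plus strand: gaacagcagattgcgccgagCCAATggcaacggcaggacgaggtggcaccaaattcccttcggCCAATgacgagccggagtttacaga
SREBF2, chr22:41832952-41833023, plus strand: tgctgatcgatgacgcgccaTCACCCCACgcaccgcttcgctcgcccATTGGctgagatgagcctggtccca
The boxes of HMGCS1 began 155 and 100 bases before its gene start, and those of FDPS 176, 122 and 51 bases before it. In IDI1 a forward and a reverse match overlapped in the first run of capitals, and in SREBF2 the first run is the sterol regulatory element.

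The question put to the counts was whether lipid synthesis genes and their transcripts differed in level between SGC-CLK-1 and DMSO. The files give UMI counts per transcript, which were summed per gene. The SGC-CLK-1 libraries held 666702, 362826 and 373004 counts (replicates 1, 2 and 3), and the DMSO libraries 416352, 523456 and 372876. Levels are given as normalised counts as CPM, that is, scaled to 1000000 counts per library, with library sizes adjusted by edgeR's TMM factors, which lay between 0.9335 (DMSO replicate 3) and 1.032 (SGC-CLK-1 replicate 3). At this depth 3 counts, the limit that a count of 0 allows, were worth 4.42 to 8.62 CPM per library, and this limit covers counting error only. In 6 of the 8 genes the counts passed edgeR's filter on low values, and INSIG1 and FASN were under it.

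None of the 6 tested genes passed the test of a difference between the groups (edgeR quasi-likelihood test, Benjamini-Hochberg adjusted p under 0.05 over 6344 genes, smallest adjusted p = 0.38), where 15 genes or 0.236% of all genes tested passed. At an unadjusted p under 0.05 the number was also 0 of 6, beside 13.9% of all genes, and DESeq2 gave 0 of 6 too. With edgeR it was 1 of 6 without SGC-CLK-1 replicate 1, DMSO replicate 1 or DMSO replicate 2. Beside these stood 890 of 6658, 784 of 6739 and 997 of 6692 genes tested. It was also 1 of 6 with the most abundant transcript (639 of 3688 genes) and with protein-coding transcripts only (724 of 4995). Without a filter, where INSIG1 and FASN joined, it was 1 of 8 (1615 of 18776). IDI1, FDPS, FDFT1 and SQLE had higher fitted values in SGC-CLK-1 and HMGCS1 and SCD lower ones. The median log2 fold change of the 6 genes was 0.23, while that of all genes tested was -0.0012. In 3 of the 6 genes, IDI1, FDFT1 and SQLE, all 3 SGC-CLK-1 libraries lay above the 3 DMSO libraries, and 19.7% of all genes tested had groups that did not overlap. In bulk libraries fewer cells expressing a gene and less RNA per cell cannot be told apart.

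**Figure D1:**
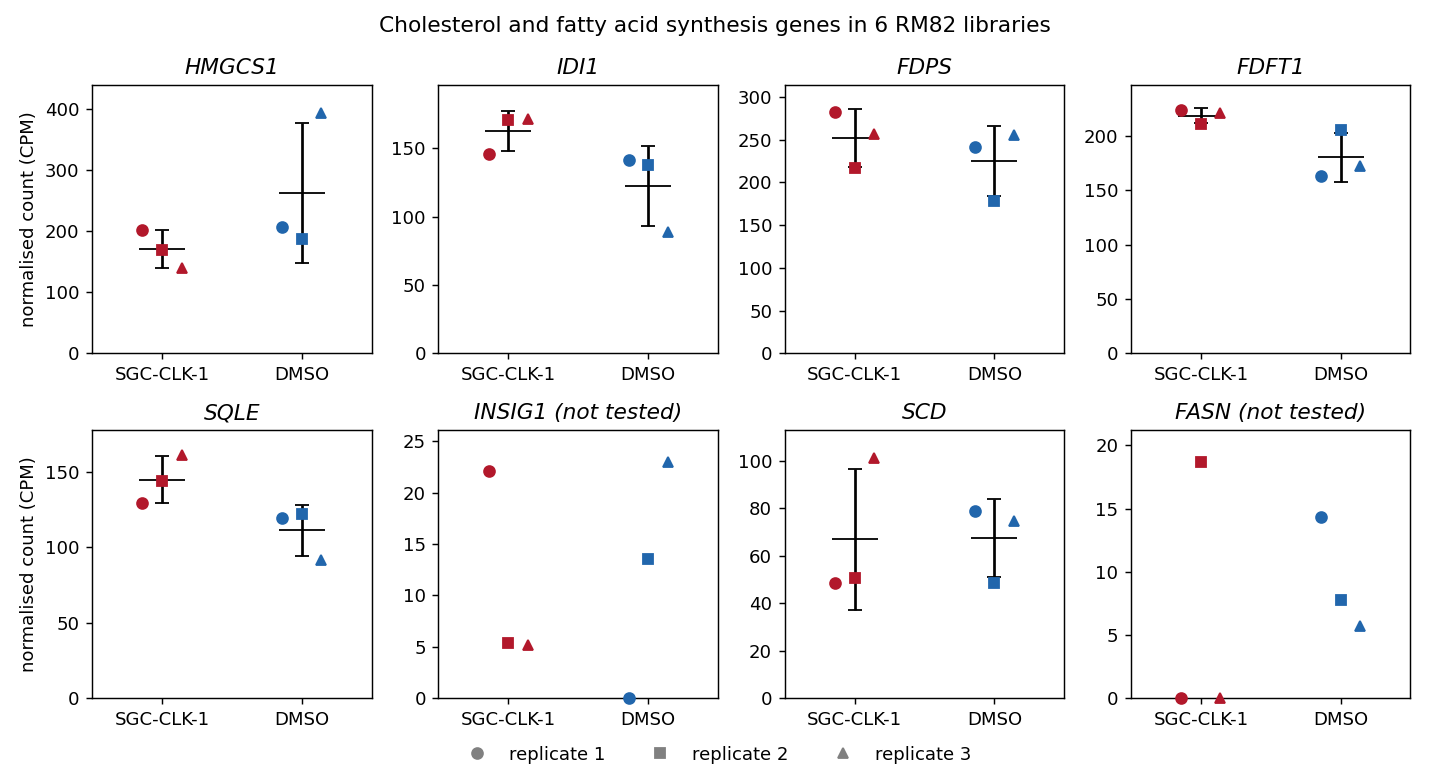
Normalised count (CPM, y axis, from 0, own scale per gene) of the 8 genes in the 3 SGC-CLK-1 (red) and 3 DMSO (blue) libraries, with 1 symbol per replicate; horizontal lines and bars are mean and SD, left out for the genes that were not tested. The groups are apart in IDI1, FDFT1 and SQLE, and the highest HMGCS1 and the lowest IDI1 and SQLE values are all in DMSO replicate 3.

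HMGCS1 (ENSG00000112972, chr5:43287470-43313512), which makes the HMG-CoA that enters the mevalonate pathway, had the lowest fitted fold change of the tested genes described here. Its level was 202, 168 and 140.3 CPM in SGC-CLK-1 and 206, 186 and 394 CPM in DMSO. DMSO replicate 3 was far above the other 5 libraries, and SGC-CLK-1 replicate 1 lay between the other DMSO values, so that the groups overlapped. The means were 170.1 ± 30.7 (SD, n = 3) and 262 ± 114 CPM (SD, n = 3). Its log2 fold change was -0.59 (SE 0.29, 95% interval -1.20 to 0.018, edgeR adjusted p = 0.38). Without DMSO replicate 3 it was -0.20 (edgeR adjusted p = 0.82).

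IDI1 (ENSG00000067064, chr10:1039152-1049119), the isomerase that supplies dimethylallyl diphosphate, ran the other way. It had 146, 171 and 171 CPM in SGC-CLK-1 and 141, 138 and 89.1 CPM in DMSO. The groups were apart by the narrow gap between SGC-CLK-1 replicate 1 and DMSO replicate 1, and DMSO replicate 3 was again the library farthest off, here on the low side. The log2 fold change of 0.39 (SE 0.25, 95% interval -0.15 to 0.93) had an edgeR adjusted p of 0.53, and it was 0.21 without DMSO replicate 3.

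FDPS (ENSG00000160752, chr1:155308748-155320666), the synthase of farnesyl diphosphate, showed the smallest difference of the 5 tested mevalonate pathway enzymes described here. Its values of 283, 216 and 257 CPM in SGC-CLK-1 and 242, 179 and 256 CPM in DMSO were interleaved. FDPS had a log2 fold change of 0.18 with a 95% interval from -0.30 to 0.65 (edgeR adjusted p = 0.79). It was 0.031 without DMSO replicate 2 and 0.071 without SGC-CLK-1 replicate 1, and 0.27 without either SGC-CLK-1 replicate 2 or DMSO replicate 3. FDPS has 8 annotated processed copies, of which 4 were listed with 21 counts in all, and how reads were divided between them and the gene was not tested.

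FDFT1 (ENSG00000079459, chr8:11795573-11839395), squalene synthase, commits farnesyl units to sterols. It had 224, 211 and 221 CPM in SGC-CLK-1 and 163, 206 and 172 CPM in DMSO. The SGC-CLK-1 libraries lay close together, at 219 ± 6.68 CPM (SD, n = 3), above 180.3 ± 22.6 CPM (SD, n = 3) in DMSO. FDFT1 had a log2 fold change of 0.28 (SE 0.21, 95% interval -0.18 to 0.74, edgeR adjusted p = 0.62), and 0.60 when only its most abundant transcript was counted (edgeR adjusted p = 0.23).

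SQLE (ENSG00000104549, chr8:124998497-125022283), squalene epoxidase, the next enzyme, had 129.5, 144 and 161 CPM in SGC-CLK-1 and 119.7, 122 and 91.9 CPM in DMSO. The groups did not overlap, and DMSO replicate 3 was the lowest library, as in IDI1. The log2 fold change was 0.37 (SE 0.25, 95% interval -0.16 to 0.90, edgeR adjusted p = 0.55), and 0.24 without DMSO replicate 3. The exact two-sided permutation test of log2 CPM gave p = 0.1 for SQLE, FDFT1 and IDI1, p = 0.2 for HMGCS1 and p = 0.5 for FDPS, and 0.1 is the smallest p that 3 libraries against 3 allow.

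**Figure D2:**
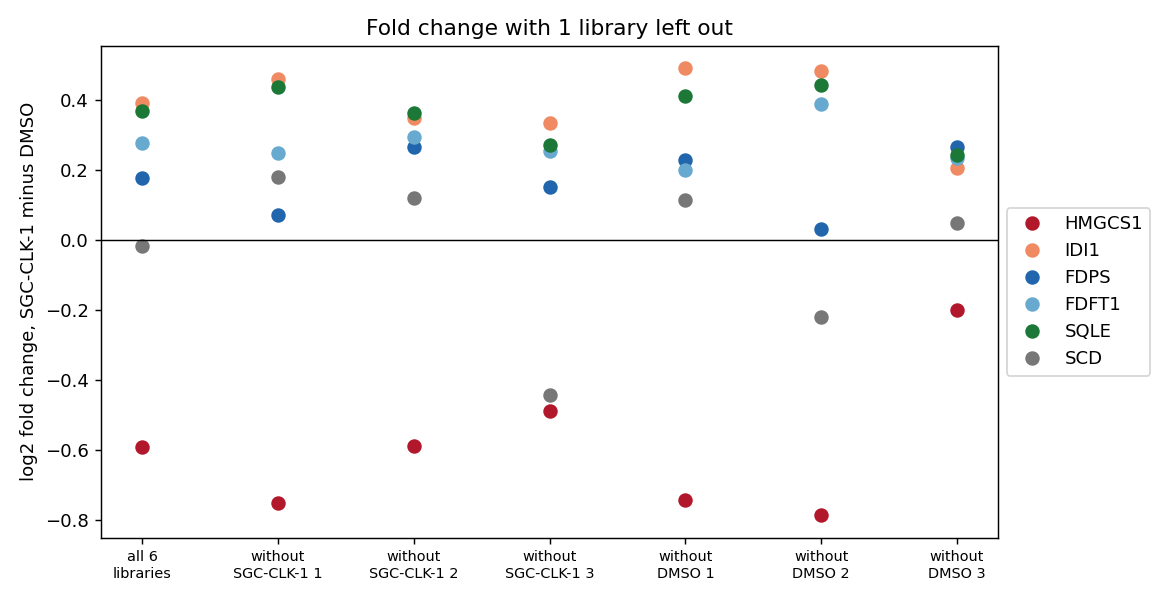
Log2 fold change of the 6 tested genes (y axis, SGC-CLK-1 minus DMSO, edgeR) with all 6 libraries and after leaving 1 library out (x axis). HMGCS1 stays below 0 and IDI1, FDPS, FDFT1 and SQLE above it in each column, SCD crosses 0, and HMGCS1 is nearest to 0, at -0.20, without DMSO replicate 3.

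INSIG1 (ENSG00000186480, chr7:155297776-155310235), the sterol-dependent anchor of the SREBP complex, was under the filter. Its counts were 15, 2 and 2 in SGC-CLK-1 and 0, 7 and 8 in DMSO. Libraries of both groups were at or under 3 counts, and no difference was detectable at this depth.

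SCD (ENSG00000099194, chr10:100347233-100364826), the desaturase that makes oleate, had 48.6, 50.7 and 101 CPM in SGC-CLK-1 and 79.0, 48.5 and 74.7 CPM in DMSO. The highest and lowest libraries were SGC-CLK-1 replicate 3 and DMSO replicate 2, and the group means of 66.9 ± 29.8 and 67.4 ± 16.5 CPM (SD, n = 3 each) were nearly equal. Its log2 fold change was -0.018 with a 95% interval from -0.80 to 0.76 (edgeR adjusted p = 0.99), and its sign turned with the scaling, the filter and the libraries used.

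FASN (ENSG00000169710, chr17:82078338-82098294), the multifunctional synthase of palmitate, was also under the filter. It was counted 0, 7 and 0 times in SGC-CLK-1 and 6, 4 and 2 times in DMSO. The count of 0 in SGC-CLK-1 replicates 1 and 3 allows up to 4.42 and 7.79 CPM, and a difference was not detectable at this depth. The most abundant FASN transcript, ENST00000306749, is 8464 bases long with 43 exons, and 9 of the 19 FASN counts were assigned to it.

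The other genes of these pathways were taken from 4 lists. Of 21 cholesterol synthesis genes 14 were tested, 8 with a higher and 6 with a lower fitted value in SGC-CLK-1, and their median log2 fold change was 0.13. Of 18 sterol sensing and uptake genes 7 were tested (5 higher, 2 lower, median 0.26), of 19 fatty acid synthesis genes 11 (5 higher, 6 lower, median -0.017) and of 17 fatty acid oxidation genes 12 (5 higher, 7 lower, median -0.12). These medians moved when 1 library was left out. The filter was rerun each time, with 6658 to 7103 genes tested instead of 6344, so the genes behind a median could change too. Leaving out 1 library gave -0.052 (without DMSO replicate 3) to 0.20 for cholesterol synthesis, with 0.071 and 0.021 without SGC-CLK-1 replicates 1 and 3. Sterol sensing ranged from 0.13 (without SGC-CLK-1 replicate 3) to 0.43 (without SGC-CLK-1 replicate 1) and was 0.42 without DMSO replicate 3. Fatty acid synthesis lay above 0 whichever of the 6 libraries was left out, from 0.014 (without DMSO replicate 2) to 0.17 (without SGC-CLK-1 replicate 2), and oxidation ranged from -0.19 (without DMSO replicate 2) to 0.012 (without DMSO replicate 1), with 0.011 and -0.019 without SGC-CLK-1 replicate 3 and DMSO replicate 3. No gene of the 4 lists passed an edgeR adjusted p of 0.05. At an unadjusted p under 0.05 there was 1 cholesterol synthesis gene, which was lower, 1 sterol sensing gene, which was higher, 2 fatty acid synthesis genes, 1 in each direction, and 1 oxidation gene, which was higher, where 13.9% of all genes tested had such a p. The 19 tested synthesis genes outside the 8 described had a median of -0.015.

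**Figure D3:**
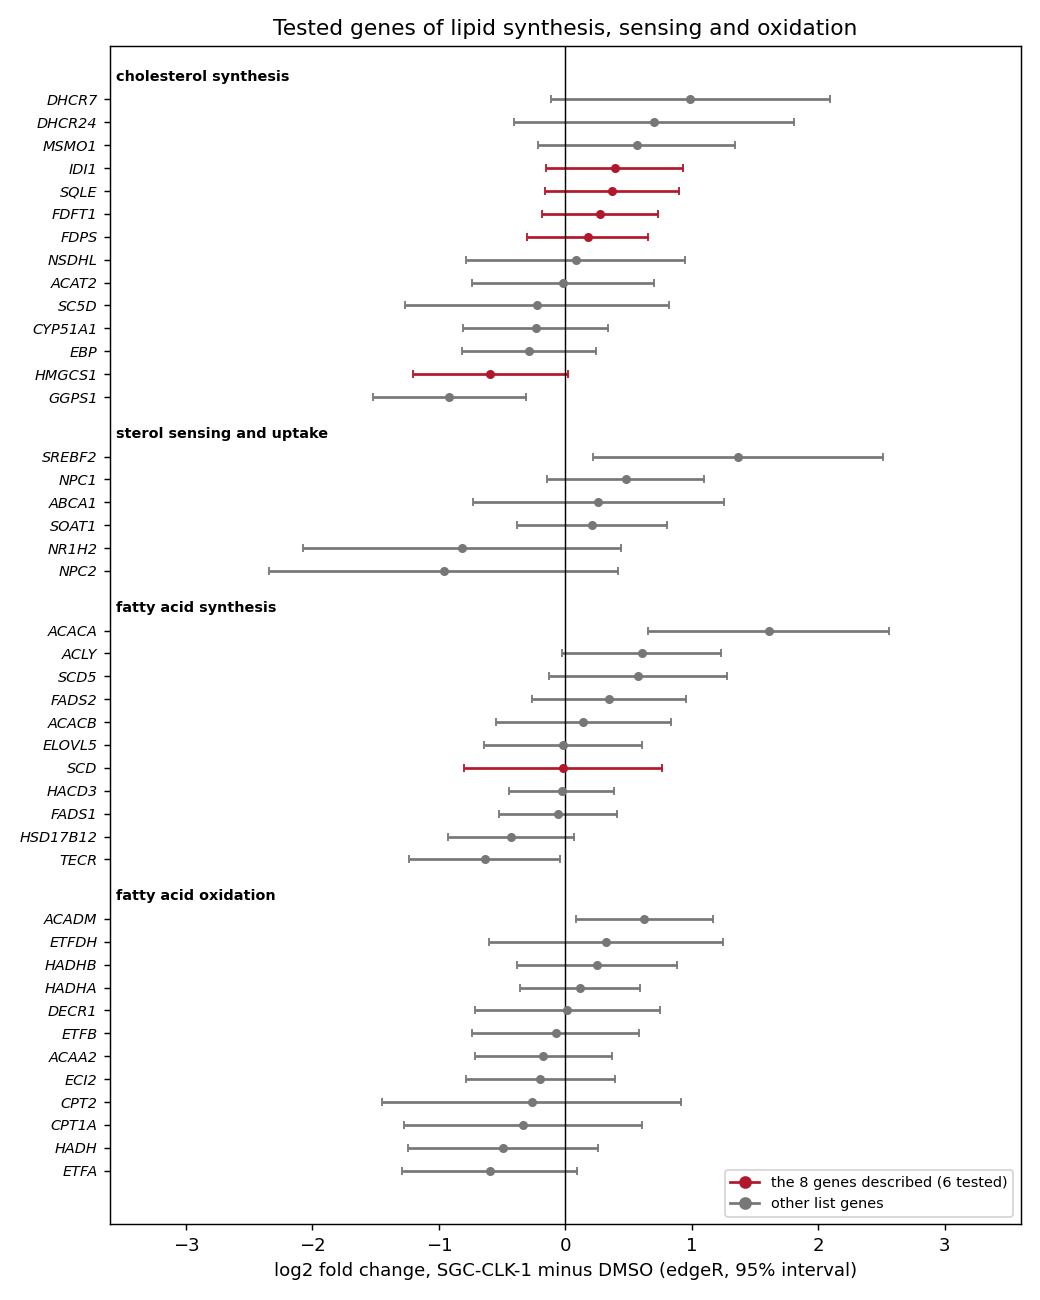
Log2 fold change (x axis, SGC-CLK-1 minus DMSO, edgeR) with its 95% interval for the tested genes of 4 lists (y axis), 1 of them not shown, with the genes described here in red. The intervals of all 6 red genes include 0, and those of GGPS1, SREBF2, ACACA, TECR and ACADM do not, before adjustment over all genes.

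Beside the cholesterol synthesis genes already given, GGPS1 and DHCR7 had the smallest unadjusted p. GGPS1, which draws farnesyl diphosphate away from sterols towards protein prenylation, had 61.8, 45.4 and 57.2 CPM in SGC-CLK-1 and 98.1, 104.8 and 112 CPM in DMSO. Its log2 fold change of -0.92 (95% interval -1.52 to -0.31) had an edgeR adjusted p of 0.15. DHCR7, a late reductase of the pathway, had a log2 fold change of 0.99 (edgeR adjusted p = 0.42).

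SREBF2, which encodes the SREBP that acts mainly on cholesterol genes and whose promoter is shown above, had 29.4, 32.1 and 46.8 CPM in SGC-CLK-1 and 14.4, 19.4 and 5.75 CPM in DMSO. The groups did not overlap, and the log2 fold change was 1.37 (95% interval 0.22 to 2.51, edgeR adjusted p = 0.27). NPC1, the lysosomal cholesterol exporter, had a log2 fold change of 0.48 (edgeR adjusted p = 0.50). SREBF1 was under the filter, with 3, 3 and 8 counts in SGC-CLK-1 and 0, 8 and 0 in DMSO.

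ACACA, the acetyl-CoA carboxylase that makes the malonyl-CoA used by FASN, had the largest fitted fold change among the tested genes of the 4 lists. It had 44.2, 50.7 and 104 CPM in SGC-CLK-1 and 23.9, 17.5 and 23.0 CPM in DMSO, with no overlap. The log2 fold change was 1.61 (SE 0.44, 95% interval 0.66 to 2.56, edgeR adjusted p = 0.12). ACLY, which supplies cytosolic acetyl-CoA, had a log2 fold change of 0.61 (edgeR adjusted p = 0.38), and TECR, the last enzyme of very long chain elongation, one of -0.64 (edgeR adjusted p = 0.33). In fatty acid oxidation, ACADM, the medium-chain dehydrogenase, had a log2 fold change of 0.62 (edgeR adjusted p = 0.29), ETFA, which takes up its electrons, one of -0.60 (edgeR adjusted p = 0.44), and HADH one of -0.49 (edgeR adjusted p = 0.58).

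The 62 listed transcripts of the 8 genes were 34 protein-coding, 17 retained-intron, 7 with no defined coding sequence and 4 annotated for nonsense-mediated decay. Protein-coding transcripts held 93.3, 93.2 and 95.3% of the counts of the 8 genes in SGC-CLK-1 and 93.1, 93.8 and 94.3% in DMSO, which overlapped. Retained-intron transcripts held 5.03, 3.52 and 3.44% in SGC-CLK-1 and 3.72, 2.59 and 2.34% in DMSO, also with overlap. Transcripts with no defined coding sequence held 1.26, 1.90 and 1.23% in SGC-CLK-1 and 2.98, 3.02 and 3.38% in DMSO, with no overlap. Of the 60 counts of that class 37 were of 1 FDFT1 transcript, described below, so both separations rest largely on the same counts. The next most abundant of the class, ENST00000492244 of FDPS, had 4, 2 and 3 counts in SGC-CLK-1 and 2, 2 and 1 in DMSO. How often such a class separates over all genes was not computed.

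Of the 62 transcripts 13 passed the filter, all protein-coding, and 0 of 13 passed the test at an edgeR adjusted p under 0.05, beside 3.95% of the 7840 transcripts tested. At an unadjusted p under 0.05 there were 2 of 13, beside 18.0%, and DESeq2 gave 0 of 13 at an unadjusted p under 0.05 and 0 of the 8 for which it gave an adjusted p. Both of the 2 were FDFT1 transcripts. With edgeR the number was 6 of 13 without DMSO replicate 2, beside 1706 of all 8530 transcripts tested. It was 0 of 13 without DMSO replicate 3, beside 1406 of 9403, and 1 or 2 without any other single library. ENST00000220584 had 87.4, 61.7 and 95.4 CPM in SGC-CLK-1 and 41.0, 68.4 and 55.0 CPM in DMSO, and its log2 fold change was 0.62 (95% interval 0.062 to 1.18, edgeR adjusted p = 0.23). ENST00000615631 has the same 1251 coding bases, in 9 exons instead of 8. It had 66.6, 77.8 and 63.6 CPM in SGC-CLK-1 and 43.4, 56.6 and 35.8 CPM in DMSO, with no overlap, and a log2 fold change of 0.64 (95% interval 0.063 to 1.21, edgeR adjusted p = 0.23). The share of all transcripts whose groups did not overlap was not computed, for this transcript or the next. For gene sums it was 19.7%.

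The FDFT1 transcript ENST00000446331, chosen after its values were seen, ran against these. It has 5 exons with no defined coding sequence and holds no base of exons 2, 3 and 4 of ENST00000220584, and only part of exons 1, 5 and 8. In all, 487 of the 1251 coding bases are missing from it. It was counted 3, 3 and 2 times in SGC-CLK-1 and 9, 11 and 9 times in DMSO, with no overlap, and it made up 1.97, 3.80 and 2.35% of the FDFT1 counts in SGC-CLK-1 and 13.2, 10.4 and 15.0% in DMSO. These counts were too low for the filter. In the fit without a filter its log2 fold change was -1.92 (SE 0.57, 95% interval -3.03 to -0.80, edgeR adjusted p = 0.16). In that fit 0 of the 62 transcripts passed the adjusted threshold, beside 0.173% of 93530. At an unadjusted edgeR p under 0.05 there were 7 of 62, beside 5.42%. Among the 7 were ENST00000325110 and ENST00000433297 of HMGCS1, whose counts differed by at most 1 per library, so they are not separate units. ENST00000518931 of SQLE had 2, 3 and 1 counts in SGC-CLK-1, and ENST00000525900 of FDFT1 had 1, 1 and 3. Each had 0 counts in every DMSO library. The rest were ENST00000220584, ENST00000615631 and ENST00000446331 of FDFT1.

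**Figure D4:**
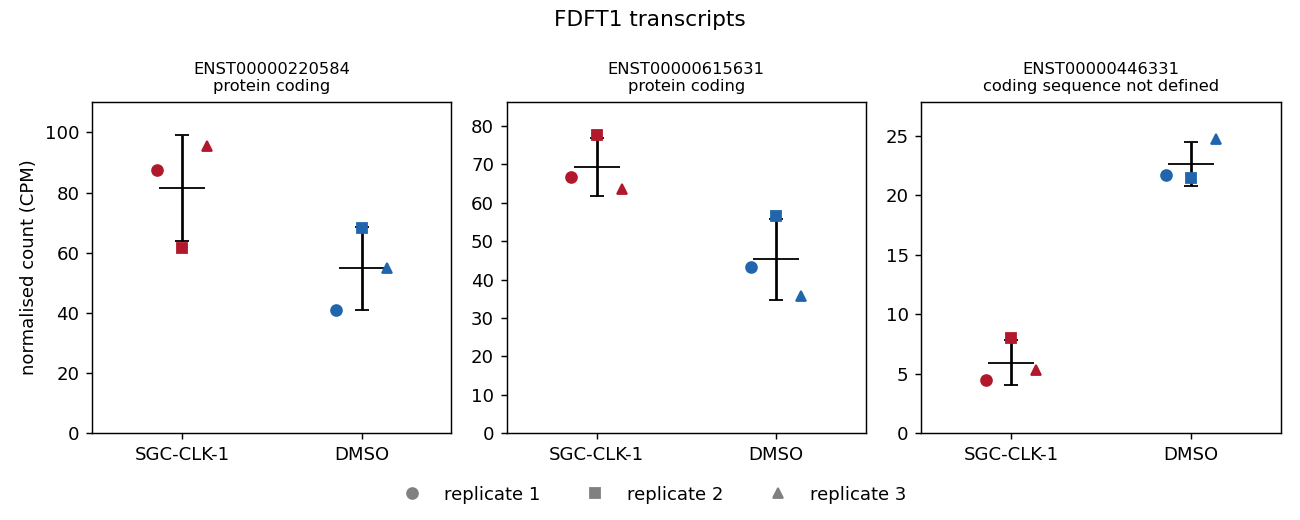
Normalised count (CPM, y axis, from 0, own scale per transcript) of 3 FDFT1 transcripts in the 3 SGC-CLK-1 (red) and 3 DMSO (blue) libraries, with mean and SD and 1 symbol per replicate. The short transcript on the right has 2 or 3 counts per SGC-CLK-1 library and 9 to 11 per DMSO library.

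Transcript usage, that is, whether a transcript moved apart from the rest of its gene, could be tested with diffSpliceDGE of edgeR in the 5 genes with 2 or more transcripts past the filter. A difference passed the test in 0 of the 5 (FDPS, HMGCS1, SQLE, IDI1 and FDFT1), with a smallest unadjusted p of 0.94 and an edgeR adjusted p of 1.00 in each, beside 0.277% of 1805 genes. ENST00000446331 was not part of that test, because only transcripts past the filter entered it. For HMGCS1 and IDI1 the test could show no difference, since their 2 tested transcripts carried nearly the same counts, as described next.

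In several of the genes, most plainly HMGCS1 and IDI1, the 2 leading transcripts carried nearly the same counts. ENST00000325110 and ENST00000433297 of HMGCS1 had 66 and 65, 31 and 30, and 27 and 27 counts in SGC-CLK-1 replicates 1 to 3, and 43, 48 and 68 counts each in DMSO replicates 1 to 3. Their sequences share 3366 of the 3466 exonic bases of the shorter one and all 1560 coding bases. ENST00000429642 and ENST00000381344 of IDI1 share 2503 of 2739 exonic bases and also differed by at most 1 count in each of the 6 libraries. At far lower counts the leading FASN transcripts, with 9 and 8 counts in all, did so in 6 of 6 libraries and those of INSIG1, with 15 and 14, in 5 of 6. The leading FDPS transcripts, ENST00000368356 and ENST00000356657, with 148 and 137 counts, did so in 3 of 6 and differed by up to 6 counts. The authors' alignment kept up to 3 secondary alignments per read, and whether single molecules were counted on both transcripts was not tested. Gene sums over several transcripts are therefore not read as numbers of molecules. The leading SQLE transcripts, ENST00000265896 with 230 and ENST00000523430 with 109 counts in all, and the leading FDFT1 transcripts, with 190 and 158, were not paired in this way, and SCD has 1 annotated transcript.

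**Figure D5:**
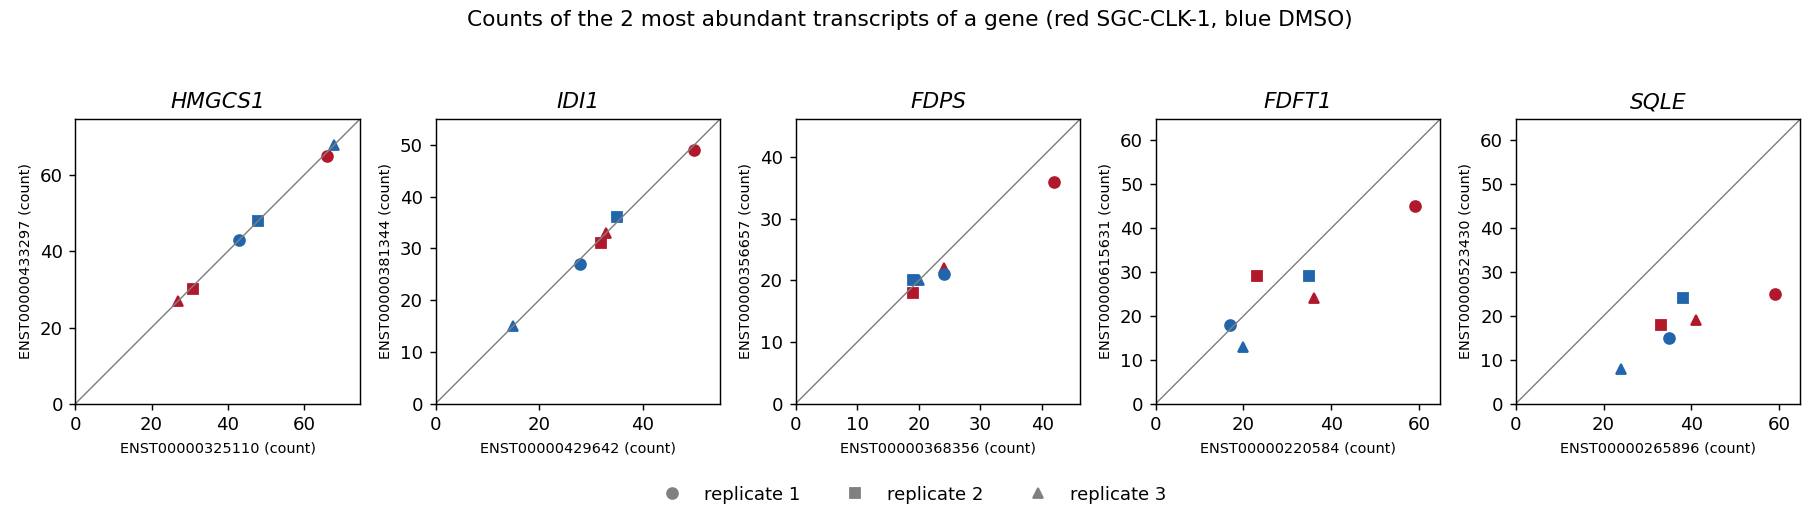
Counts of the most abundant (x axis) and second most abundant (y axis) transcript of 5 genes in each SGC-CLK-1 (red) and DMSO (blue) library, with 1 symbol per replicate and a line of equal counts. The points of HMGCS1 and IDI1 lie on the line within 1 count, and those of SQLE all lie below it.

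Among the 13 transcripts past the filter, the fitted values of those of HMGCS1, IDI1, SQLE, FDFT1 and FDPS had the sign of their gene sums, and that of the SCD transcript had the opposite sign. The HMGCS1 pair had log2 fold changes of -0.50 and -0.53 (edgeR adjusted p = 0.32 and 0.29), the IDI1 pair 0.50 and 0.48 (edgeR adjusted p = 0.33 and 0.36), the SQLE pair 0.38 and 0.35 (edgeR adjusted p = 0.45 and 0.63), and the 4 FDPS transcripts between 0.055 and 0.32 (edgeR adjusted p between 0.60 and 0.96). The SCD transcript had 0.056 (edgeR adjusted p = 0.95). Without DMSO replicate 3 the HMGCS1 pair had -0.17 and -0.19, the IDI1 pair 0.29 and 0.27, and ENST00000523430 of SQLE 0.10. Without DMSO replicate 2 that SQLE transcript had 0.63, and ENST00000368356 and ENST00000356657 of FDPS had 0.13 and 0.073.

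The cell line was checked against marker genes. Of 10 Ewing sarcoma markers 8 had a count and 5 were tested, and NKX2-2 and FLI1 were listed in no library. CCND1 was the most abundant, with 1464 counts in all, BCL11B had 1373 and CD99 335. PRKCB, LIPI and NR0B1 had only 55, 31 and 20. The summed level of the markers was 1444, 1461 and 1377 CPM in SGC-CLK-1 and 1587, 1355 and 1821 CPM in DMSO, highest in DMSO replicate 3. Of the 5 tested, 1 had a higher and 4 a lower fitted value in SGC-CLK-1. Their median log2 fold change was -0.30, between -0.43 and -0.14 without single libraries, and -0.036 without a filter. EWSR1 had a log2 fold change of 0.55, CCND1 one of -0.45 and CD99 one of -0.50 (edgeR adjusted p = 0.32, 0.32 and 0.45). The groups did not overlap in EWSR1 and CCND1, beside 19.7% of all genes tested. Both had an unadjusted edgeR p under 0.05, beside 13.9% of all genes tested. Of 10 markers of blood, epithelial, connective, vessel, liver, fat and muscle cells none reached the filter, CD3E, ALB and MYOD1 were at 0, and the sum was 21, 14 and 15 counts in SGC-CLK-1 and 18, 16 and 9 counts in DMSO. PTPRC, the most abundant of them, had 42 counts in all.

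The genes whose profile over the 6 libraries was most like the mean centred log2 CPM of the 6 tested genes were GRP, NF1, OR8G1, RPL38 and HERC4. Their Pearson r was 0.97 in each, over 6 libraries that share depth and scaling, and they were picked as the highest of all tested genes outside the lists. The mean profile itself ranged from -0.16 (DMSO replicate 2) to 0.17 (SGC-CLK-1 replicate 3) on the log2 scale. Its highest and lowest libraries were also those of SCD. It was -0.0046 in DMSO replicate 3, where HMGCS1 was highest and IDI1 and SQLE lowest. The mean of genes that moved in opposite directions does not show the pattern of each.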

How the data were processed

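Per the study's methods, the authors mapped nanopore reads to Ensembl 98 human transcripts with minimap2 (2.22 per the labels), keeping up to 3 secondary alignments per read with a score ratio of 0.9, collapsed the 30-base UMIs and deposited 1 file of UMI counts per library, without normalization. Which collapsing method made the deposited counts is not given in the sources used here. A transcript that a library does not list was given a count of 0. Transcripts were joined to GENCODE 44 genes by identifier without version, which 92.3% of the 93530 transcripts had, and summed per gene.

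Tests used edgeR 4.0.16 in R 4.3.3: the quasi-likelihood F-test on TMM-scaled counts that passed filterByExpr (minimum count 10, minimum total 15), with 95% intervals and p-values adjusted by Benjamini-Hochberg over all features at a threshold of 0.05, with diffSpliceDGE for usage and with DESeq2 1.42.0 as an alternative. Exact permutation tests of log2(CPM + 1) used scipy 1.17.1. The functions were tested on simulated data. The text names all 8 genes, their transcripts past the filter, further pathway genes (SREBF1, SREBF2, ACLY and ACACA), the 3 genes with the smallest p of each list and the 5 genes most alike in profile. The list counts include every gene tested, but 2 genes that this rule names are not reported here. The genes and lists were chosen with earlier results of these data known. Alternatives were other scalings, filters, DESeq2, a replicate block, 1 transcript per gene, protein-coding transcripts only and leaving out each library. The filter was rerun when a library was left out, so the genes tested could change with it. As a check for libraries deposited more than once, libraries of 1 group were compared, and none agreed within sampling noise (chi-square per degree of freedom 1.38 to 3.02).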

Additional observations from a re-analysis of the deposited data

How the results depend on the processing

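In the 15 gene-level and 13 transcript-level fits, none of the 6 genes or 13 transcripts that had an adjusted p in a fit passed the threshold there. With at least 10 counts in every library 12 transcripts were tested, and DESeq2 gave an adjusted p for 8, without ENST00000523430 and the 4 of FDPS. Of 90 alternative fold changes of the genes 82 kept their sign, and the 8 that turned were all of SCD, as were 2 of the 4 of 155 that turned at transcript level. SCD had a log2 fold change of 0.059 with library size only, 0.029 with at least 10 counts in every library, 0.024 with the most abundant transcript, 0.0051 with protein-coding transcripts, and between -0.44 and 0.18 without single libraries. Without single libraries the SCD transcript ENST00000370355 ranged from -0.32 to 0.30, and the FDPS transcripts ENST00000447866 and ENST00000467076 from -0.0017 to 0.12 and from -0.014 to 0.27. The median of the genes was 0.11 without a filter, where INSIG1 and FASN joined, and 0.33 with the most abundant transcript of each gene. Of the list medians, that of fatty acid oxidation turned to 0.10 and that of fatty acid synthesis to 0.024 with the most abundant transcript. With at least 10 counts in every library they were -0.024 and 0.029, with library size only -0.050 and 0.059, and with protein-coding transcripts -0.066 and 0.044. Those of sterol sensing and cholesterol synthesis were 0.53 and 0.079 with at least 10 counts, and the latter was 0.20 with library size only.

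The background of calls moved much more. Beside 15 genes it was 28 with library size only, where 20 were higher against 7 of 15 and the median of all genes was 0.075, 169 without a filter, 64 with at least 10 counts, 107 by DESeq2, 147 with 1 transcript per gene, 0 with protein-coding transcripts (724 at an unadjusted p under 0.05, edgeR), and 1 to 21 without single libraries. Beside 310 transcripts it was 162 without a filter, 173 with at least 10 counts, 113 by DESeq2 and 81 to 363 without single libraries. For usage, beside 5 genes, it was 1 with at least 10 counts and 1 to 5 without single libraries. The cause was not tested.

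Same-numbered libraries correlated at 0.064, 0.024 and 0.031 (deviations from group means), so the numbers were not read as pairs. With a replicate block 36 genes, 427 transcripts and 4 usage genes passed, none of the genes described here among them. Depth limits INSIG1, FASN and SREBF1, whose libraries held few counts, and for the tested genes the 95% intervals show the precision that 3 libraries per group give.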

Other observations

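Within a library the ratio of HMGCS1 to the later mevalonate enzymes needs no scaling between libraries. Chosen after the values were seen, it is given as a description with no test. For every 100 counts of IDI1, FDPS, FDFT1 and SQLE together there were 25.8, 22.7 and 17.3 counts of HMGCS1 in SGC-CLK-1 and 30.9, 28.9 and 64.6 in DMSO. All 3 SGC-CLK-1 libraries were below the 3 DMSO libraries, and DMSO replicate 3, with 137 HMGCS1 counts beside 212 of the others, was far from the rest. Without that library the groups still did not overlap, and the nearest values were those of SGC-CLK-1 replicate 1 and DMSO replicate 2. The ratio sets HMGCS1, with a lower fitted value, over enzymes with higher ones, so this separation restates those values.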
